A study of Mus musculus with 89 samples.

Results

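The 4 RNA-seq libraries described here compare mouse embryonic stem cells (ESCs) that lost both Esrrb and Nr5a2 with the same kind of cells that had both, in medium with foetal calf serum and leukaemia inhibitory factor (FCS/LIF). They were chosen by their labels alone, as the 2 FCS/LIF libraries without either factor (-E-N) and the 2 with both (+E+N), out of 89 samples in the series, 20 of them RNA-seq. All cells were EKOiE ESCs, a line whose endogenous Esrrb gene is disrupted and in which an Esrrb transgene is switched on by doxycycline (Dox). The +E+N cells were EKOiE kept in Dox at 1 µg/ml, and the -E-N cells were EKOiE NrKO, a clone of that line with Nr5a2 disrupted as well, kept without Dox for 2 days. The other 2 states of the same medium were EKOiE without Dox for 2 days (-E) and EKOiE NrKO with Dox (-N), each with 2 libraries. All 8 libraries are poly-A selected RNA of whole cultures. Loss of Nr5a2 and the derivation of a clone cannot be told apart in these data, nor can loss of Esrrb and removal of Dox. The study describes the libraries of a state as independent experiments, while the labels only number them, and p-values measure the spread between these libraries.

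Esrrb and Nr5a2 are orphan nuclear receptors that bind DNA as monomers, at closely related sequences built around AAGGTCA. In naive ESCs, the counterpart of the preimplantation epiblast, they act with Oct4, Sox2, Nanog and the Klf factors to keep the self-renewal network on. LIF acts through Stat3 in the same direction, while autocrine Fgf4 and Erk signalling drives the cells towards the formative and primed states that precede gastrulation. Serum adds Bmp and other growth signals, and ESCs in FCS/LIF are known to be a mixed population in which some cells drift towards differentiation.

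The FCS/LIF libraries held between 36514172 and 45443379 estimated counts. Esrrb itself, at chr12:86361117-86521628 in GRCm38, was counted at 279 and 362 CPM in +E+N and 31.7 and 29.4 CPM in -E-N (CPM, counts per 1000000 of the library after edgeR's TMM scaling), and fell (log2 fold change -3.39, SE 0.14, adjusted p = 1.16e-06). The Esrrb value includes any transcript of the disrupted gene besides the transgene. Nr5a2, at chr1:136842571-136960448, was at 41.01 and 37.1 CPM in +E+N and 10.4 and 9.34 CPM in -E-N and fell too (log2 fold change -1.99, SE 0.09, adjusted p = 1.61e-06), although the targeted exon is a small part of the counted transcript. In -N alone its transcript was at 27.5 and 25.98 CPM and did not pass the test (log2 fold change -0.55, adjusted p = 0.0212), so its level does not check the disruption. All 8 markers of ESCs were counted in all 4 libraries, with a summed level of 8096 and 7928 TPM (transcript counts per length, scaled to 1000000 in each library) in +E+N and 5009 and 4590.4 TPM in -E-N. Dppa5a made up most of this sum, at 5405 and 5365 TPM in +E+N and 3356 and 3143 TPM in -E-N. Of the 8 markers 6 fell, Sall4 did not pass the test and Fut4, at a low level, rose (log2 fold change 1.63). Counts of the 2 libraries within a state varied beyond sampling error (chi-square over genes divided by its degrees of freedom, 13.2 in +E+N and 10.8 in -E-N).

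Between -E-N and +E+N, 2934 of 15636 tested genes (18.8%) passed an adjusted p of 0.01 and a fold change of 1.5 (quasi-likelihood test of edgeR, p adjusted by Benjamini-Hochberg). Of these, 1934 rose (12.4% of the tested genes) and 1000 fell (6.4%). The rises were more numerous but the largest changes were falls. Beyond 8-fold there were 42 rises and 56 falls, and beyond 4-fold 311 rises and 184 falls. In the same fit, 901 genes (5.76%) were called between -E and the same +E+N libraries, 505 higher (3.23%) and 396 lower (2.53%). Between -N and +E+N there were 27 (0.173%), with 12 higher (0.0767%) and 15 lower (0.0959%). The larger change lay in -E-N replicate 2, which stood further from the controls than replicate 1 in 72.9% of the rises and 60.0% of the falls. Without it 1138 genes rose and 681 fell. Levels per length (limma on log2(TPM + 1)) gave 1834 higher and 538 lower, a split of 77.3% higher against 65.9% by edgeR, with the median gene shifted up by 0.13. The libraries of the 2 states did not overlap in any called gene, nor in 74.2% of all tested genes. Of the tested genes, 216 had passed the count filter through -E-N alone, and 78 of these were among the rises.

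By function, 53 lists of genes were set against these background shares, and 36 had at least 25% of their tested members called in 1 direction. By the number of genes called, pluripotency, maternal-effect, germline, amino acid and one-carbon genes lay on the falling side. Cytoskeletal, matrix, trophectoderm, junction, Bmp, Wnt and germ layer genes lay on the rising side. Few or none of the genes for the ribosome, the respiratory chain, DNA replication and mitosis passed both limits. The lists overlap, and no test was made over a list. At most 3 tested members of a list had passed the count filter through -E-N alone, which favours rises. A single value after a gene is its log2 fold change of -E-N against +E+N.

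**Figure D1:**
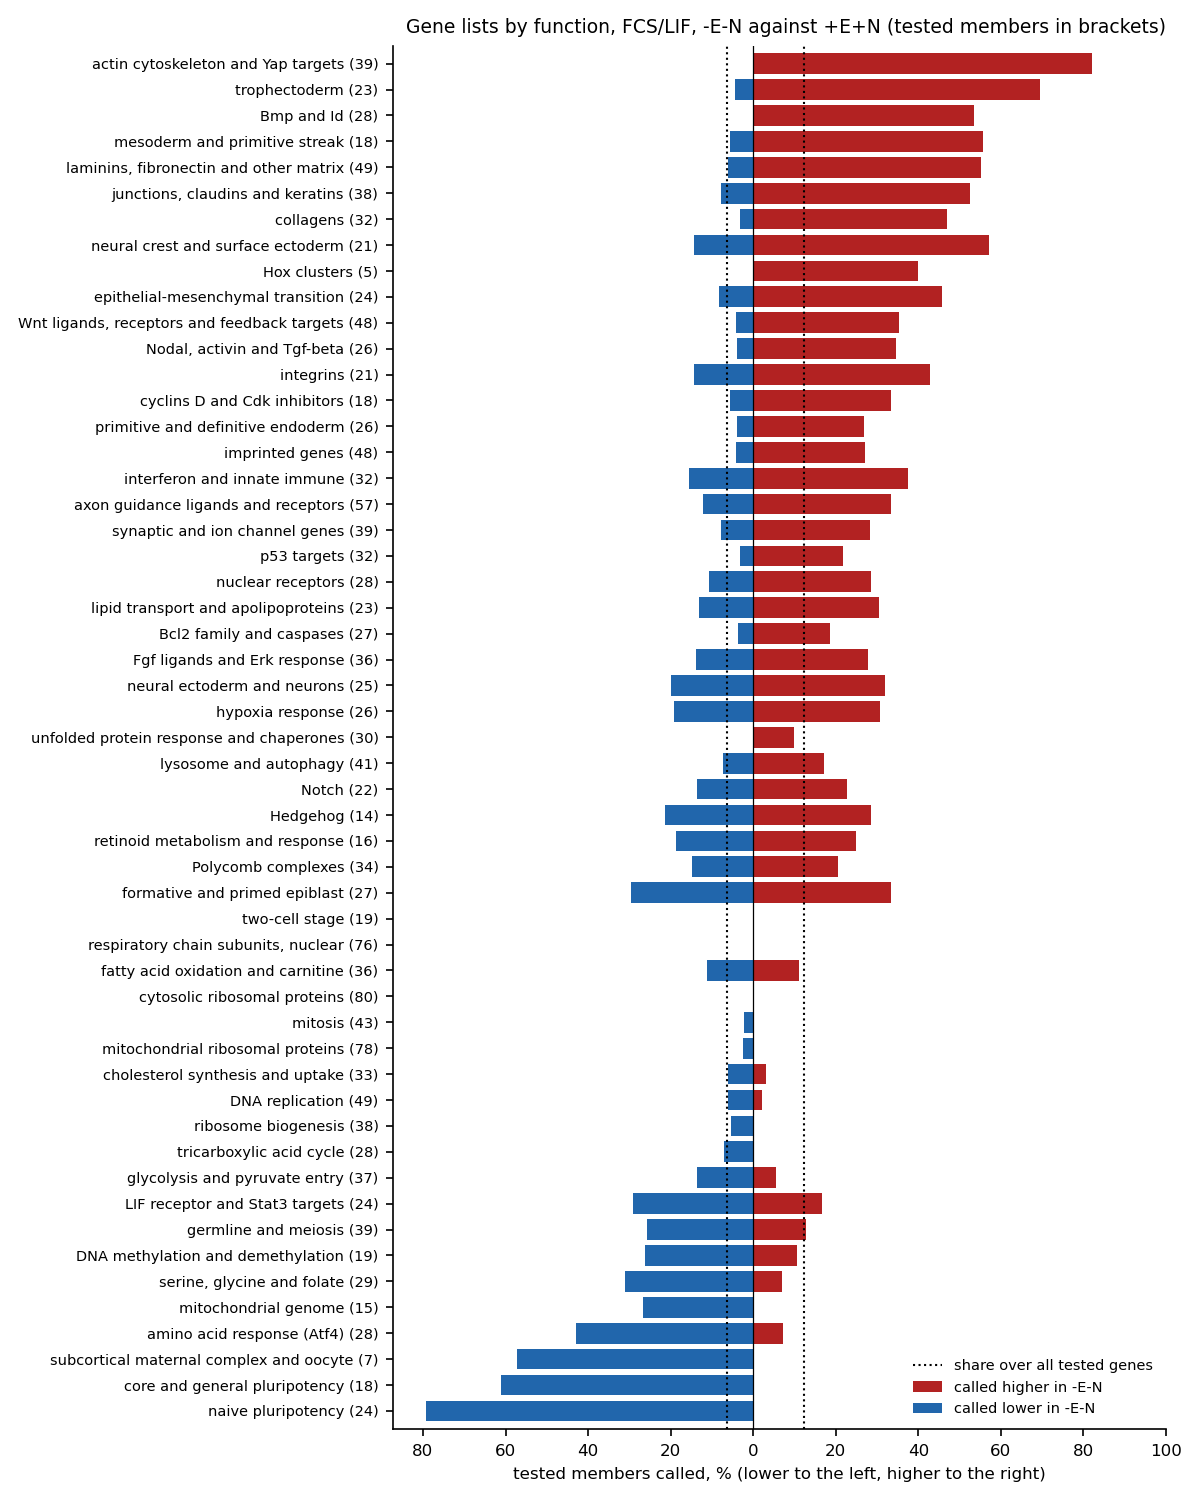
Share of the tested members of each of 53 gene lists called higher (red, to the right) or lower (blue, to the left) in -E-N against +E+N in FCS/LIF, in percent, with the number of tested members in brackets. Dotted lines mark the shares over all tested genes, 12.4% higher and 6.4% lower. Actin cytoskeleton and Yap targets stand at the rising end with 32 of 39 and naive pluripotency at the falling end with 19 of 24.

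Naive pluripotency genes fell almost as a whole. Of 24 listed members, all tested, 19 fell, none rose (none at an unadjusted p under 0.05 or by DESeq2) and all 24 had a log2 fold change below 0, with a median of -1.86 against 0 over all tested genes. The deepest fall of any well-counted gene was that of Nr0b1 (Dax1), an orphan receptor without a usual DNA-binding domain, at chrX:86191764-86195947. It stood at 54.4 and 49.8 CPM in +E+N and 0.878 and 0.881 CPM in -E-N (log2 fold change -5.88, SE 0.19, adjusted p = 2.43e-07). The -E libraries lay between, at 9.08 and 7.38 CPM, and the -N libraries close to the control at 41.1 and 32.4 CPM. Zfp42 (Rex1), the usual reporter gene of the naive state, was at 534 and 486 CPM in +E+N and 46.3 and 47.9 CPM in -E-N (log2 fold change -3.44, SE 0.09, adjusted p = 1.05e-07). Klf4, a Krüppel-like factor downstream of Stat3, was at 66.3 and 68.2 CPM in +E+N and 6.97 and 7.57 CPM in -E-N (log2 fold change -3.21, SE 0.09, adjusted p = 1.25e-07). In all 3 genes the libraries of a state lay close together and far from those of the other state. No called gene had overlapping libraries, nor did 74.2% of all tested genes.

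Of the 24 naive genes, 5 did not pass, and the list's log2 fold changes ran from -5.88 to -0.11. Prdm14, which represses Fgf receptor signalling and DNA methylation genes, was at 6.24 and 5.16 CPM in +E+N and 1.25 and 0.856 CPM in -E-N. Tfcp2l1, a factor of the naive network induced by LIF, fell as far in -E alone as in -E-N, with log2 fold changes of -2.22 and -2.30. Nanog was at 295 and 241 CPM in +E+N and 97.9 and 120.0 CPM in -E-N (log2 fold change -1.30, SE 0.11, adjusted p = 3.88e-05). Among 18 core and general pluripotency genes 11 fell and none rose (1 at an unadjusted p under 0.05, none by DESeq2), with a median of -0.64. Sox2 was at 388 and 355 CPM in +E+N and 175 and 149 CPM in -E-N and fell (log2 fold change -1.20, SE 0.10, adjusted p = 3.23e-05), and Zfp296 and Foxd3, a zinc finger and a forkhead factor of ESCs, fell by log2 values of 1.58 and 1.49. Pou5f1, which encodes Oct4, fell least of the named ones, from 1416 and 1275 CPM to 916 and 797 CPM (log2 fold change -0.65, SE 0.09, adjusted p = 4.36e-04). Without +E+N replicate 1 or -E-N replicate 2 the change of Pou5f1 was -0.58 or -0.56, under the fold limit. On the log2(TPM + 1) scale 5 of these 18 were called.

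**Figure D2:**
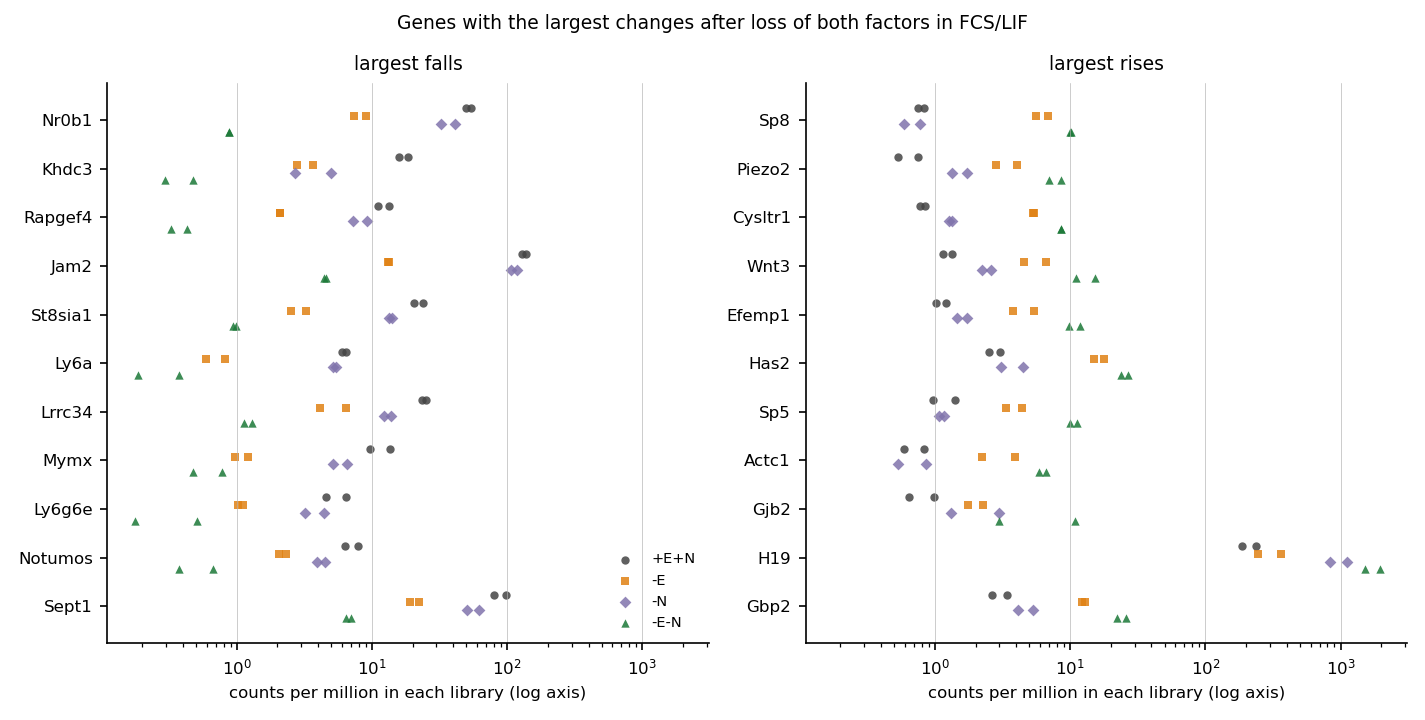
Level in CPM (log axis) of 11 of the 12 genes with the largest falls (left) and 11 of the 12 with the largest rises (right) among called genes that averaged 100 counts or more, in each of the 8 FCS/LIF libraries, marked by state. The -E libraries lie between those of -E-N and +E+N in all 22 genes shown, and the -E-N libraries are the farthest from +E+N in all but Gjb2, where -N overlaps them.

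The other deepest falls were of genes with varied roles. Khdc3 (Filia), a part of the subcortical maternal complex of the egg that also guards genome stability in ESCs, was at 18.6 and 15.9 CPM in +E+N and 0.293 and 0.478 CPM in -E-N (log2 fold change -5.46, SE 0.36, adjusted p = 1.08e-05). It is the one among the 12 for which loss of Nr5a2 alone came near to loss of Esrrb alone, at 4.97 and 2.68 CPM against 3.69 and 2.78 CPM, although the -N change did not pass the test (adjusted p = 0.0106). Jam2, a junctional adhesion molecule, went from 128 and 138 CPM to 4.44 and 4.58 CPM (log2 fold change -4.88, SE 0.09, adjusted p = 1.68e-08), with -E at 13.5 and 13.1 CPM. Rapgef4 (Epac2), a cAMP-activated exchange factor for Rap, fell by 5.02 on the log2 scale. St8sia1, which makes the ganglioside GD3, fell by 4.52. The surface proteins Ly6a and Ly6g6e fell by 4.45 and 4.01, the myoblast fusion peptide gene Mymx by 4.19, the leucine-rich repeat gene Lrrc34 by 4.31 and the septin gene Sept1 by 3.73. Notumos fell by 3.77 and its partner Notum, a secreted enzyme that inactivates Wnt proteins, by 3.58. The libraries were stranded, but whether counting used the strand is not given in the sources used here, so reads of these overlapping genes may not be told apart.

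Short matches to the receptor motif were looked for in the promoters of the called genes, taken from RefSeq (GRCm38.p6) as 250 bases before to 50 after each start. Of the tested genes, 11200 had a promoter there. The 9 letters TCAAGGTCA, on either strand, stood in 0.312% of all these genes, in 4 of 715 that fell (0.559%) and in 6 of 1447 that rose (0.415%). The variant TCAAGGCCA stood in 0.5% of all, in 8 that fell (1.12%) and in 7 that rose (0.484%). The 7-letter core AAGGTCA, which lies inside the first, stood in 4.03% of all, 5.87% of those that fell and 3.94% of those that rose, and the core AAGGCCA, inside the second, in 6.25%, 6.43% and 5.81%. The counts are small and a match is not a binding site. All 3 promoters below hold the second. They belong, among 21 called genes that averaged 100 counts or more and held a 9-letter match (in capitals, written along the strand of the gene), to those that fell furthest, Khdc3 (chr9:73102148-73102447, plus strand) and Zfp42 (chr8:43306960-43307259, minus strand), and to the one that rose furthest, Chst15 (chr7:132317179-132317478, minus strand), a chondroitin sulfate sulfotransferase with a log2 fold change of 2.49. Chst15 was chosen after its values were seen. The match is at -208 to -200 from the start in Khdc3, at -218 to -210 in Zfp42 and at -246 to -238 in Chst15.
Khdc3: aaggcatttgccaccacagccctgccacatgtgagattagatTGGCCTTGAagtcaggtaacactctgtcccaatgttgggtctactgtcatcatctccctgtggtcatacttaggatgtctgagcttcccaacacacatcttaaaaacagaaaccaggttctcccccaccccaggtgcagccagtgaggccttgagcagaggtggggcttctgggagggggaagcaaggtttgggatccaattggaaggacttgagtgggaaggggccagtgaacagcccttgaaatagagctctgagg
Zfp42: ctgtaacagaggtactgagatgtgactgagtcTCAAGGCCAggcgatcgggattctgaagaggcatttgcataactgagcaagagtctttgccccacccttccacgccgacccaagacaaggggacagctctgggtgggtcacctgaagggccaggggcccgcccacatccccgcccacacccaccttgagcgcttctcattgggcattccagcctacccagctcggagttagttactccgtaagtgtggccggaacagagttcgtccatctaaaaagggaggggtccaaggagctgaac
Chst15: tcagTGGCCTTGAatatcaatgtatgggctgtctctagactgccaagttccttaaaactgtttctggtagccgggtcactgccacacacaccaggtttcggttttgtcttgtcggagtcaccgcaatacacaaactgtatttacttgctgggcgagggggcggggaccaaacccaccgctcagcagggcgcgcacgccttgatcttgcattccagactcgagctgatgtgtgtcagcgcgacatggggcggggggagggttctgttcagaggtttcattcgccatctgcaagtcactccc

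Genes of the egg and the germline lay mostly on the falling side by the number of genes called. Of 7 tested maternal-effect and oocyte genes (18 listed), 4 fell and none rose (none at an unadjusted p under 0.05 or by DESeq2), among the falls Khdc3, its partner Ooep (-1.21) and the zona pellucida gene Zp3 (-1.41). Zp3 was not called without +E+N replicate 1, -E-N replicate 1 or -E-N replicate 2, at log2 fold changes of -0.96, -1.61 and -1.25. Of 39 germline and meiosis genes, 10 fell and 5 rose. The rising share, 12.8%, was near the 12.4% over all tested genes. The summed level of this list was higher in -E-N, at 762 and 897.5 TPM against 539 and 563 TPM in +E+N. The falls included the meiotic cohesin gene Smc1b (-1.95) and the tubulin gene Tuba3a (-2.04), while the placental and germline homeobox gene Rhox9 rose from 53.7 and 60.3 CPM to 179 and 261 CPM. Among 19 genes of DNA methylation, 5 fell and 2 rose. The demethylases Tet1 and Tet2 were at 226 and 175 CPM and 17.1 and 16.2 CPM in -E-N, against 663 and 668 CPM and 80.3 and 72.7 CPM in +E+N. Zfp57, which keeps imprints methylated, fell by 2.07 on the log2 scale, Tet3 rose by 0.77, and the de novo methyltransferase gene Dnmt3b was under the fold limit (log2 fold change 0.30, SE 0.05, adjusted p = 0.00179). Of the Platr family of non-coding transcripts, named for their tie to pluripotency, 8 of 18 tested members fell and none rose, the largest falling share among 84 families of genes with a common symbol stem. Over biotypes, 11.2% of long intergenic non-coding genes fell and 5.72% rose, against 6.27% and 13.5% of protein-coding genes.

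Genes of the LIF pathway lay on the falling side by the number called. Of 24 tested, 7 fell (29.2%, against 6.4% of all tested genes). The 4 that rose made up 16.7%, near the 12.4% of all tested genes. Besides Klf4 and Tfcp2l1, the falls included the Ras-related gene Mras at 23.2 and 19.3 CPM in +E+N and 4.71 and 5.16 CPM in -E-N. The kinase gene Jak2, which is not the main kinase of the LIF receptor, rose to 11.95 and 15.9 CPM from 5.01 and 5.70 CPM. Junb and Lefty1 rose by 0.73 and 0.80 on the log2 scale.

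A set of metabolic genes fell together with the naive genes. Of 28 tested genes of the amino acid response, which the factor Atf4 switches on when amino acids run short, 12 fell and 2 rose, with a median of -0.70. Nupr1, a small stress-induced chromatin protein, was at 16.3 and 14.8 CPM in +E+N and 0.665 and 1.84 CPM in -E-N. The pseudokinase gene Trib3, a feedback inhibitor of the response, was at 41.8 and 30.8 CPM in +E+N and 7.43 and 8.68 CPM in -E-N (log2 fold change -2.17, SE 0.16, adjusted p = 1.63e-05), and the glutathione-degrading enzyme Chac1 at 19.5 and 14.3 CPM in +E+N and 3.46 and 5.16 CPM in -E-N. The rises were Atf3 and Cebpb, at log2 fold changes of 1.25 and 1.05, and Atf3 was not called without +E+N replicate 1 or -E-N replicate 2 (1.10 and 0.88). Atf4 itself, looked up after the list was seen, fell by 0.75. In -E, 12 of the 28 fell with a median of -0.66, and between -E-N and -E 1 of the 28 passed, higher in -E-N.

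Serine, glycine and folate genes fell in 9 of 29 tested cases and rose in 2. Tdh, threonine dehydrogenase, on which mouse ESCs depend for one-carbon units, was at 108 and 99.9 CPM in +E+N and 25.7 and 27.4 CPM in -E-N (log2 fold change -1.97, SE 0.07, adjusted p = 4.26e-07). The mitochondrial folate enzyme Mthfd2 was at 159.7 and 122 CPM in +E+N and 48.8 and 53.6 CPM in -E-N and the serine synthesis enzyme Psat1 at 409 and 453 CPM in +E+N and 165 and 178 CPM in -E-N. In all 3 the libraries of both states were apart, as in every called gene and in 74.2% of all tested genes. Among genes of central carbon metabolism, those that fell furthest were Ldhb of the glycolysis list and Pck2 of the tricarboxylic acid cycle list. Ldhb, the lactate dehydrogenase subunit that favours pyruvate formation, went from 535 and 528 CPM to 79.8 and 75.1 CPM (log2 fold change -2.78, SE 0.06, adjusted p = 5.24e-08), to the same depth in -E (-2.66). Pck2, the mitochondrial enzyme that makes phosphoenolpyruvate, was at 29.2 and 22.8 CPM in +E+N and 4.74 and 4.35 CPM in -E-N. Of 37 glycolysis genes 5 fell (13.5%, against 6.4% of all tested genes) and 2 rose (5.41%, against 12.4%). Another of these falls was that of Pfkp, from 148 and 166 CPM to 52.6 and 58.8 CPM. At an unadjusted p under 0.05, 18 of the 37 were lower and 5 higher. Of 28 genes of the tricarboxylic acid cycle 2 fell (7.14%), with 12 lower and 3 higher at an unadjusted p under 0.05. Of 15 genes of the mitochondrial genome 4 fell, led by the ribosomal RNA mt-Rnr1, from 385 and 381 CPM to 183 and 201 CPM (poly-A selection limits what this RNA's level means). On the log2(TPM + 1) scale 1 of the 15 was called.

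Among the 12 largest rises were developmental factors, signalling molecules and matrix genes. The zinc finger factor gene Sp8, at chr12:118846329-118852576, rose most, and stood at 0.834 and 0.754 CPM in +E+N and 10.2 and 9.99 CPM in -E-N (log2 fold change 3.67, SE 0.20, adjusted p = 3.55e-06). Its relative Sp5, a direct target of Wnt signalling, was at 1.40 and 0.966 CPM in +E+N and 9.90 and 11.2 CPM in -E-N (log2 fold change 3.17, SE 0.22, adjusted p = 1.26e-05). Wnt3, a ligand needed to form the primitive streak, at chr11:103774150-103817957, was at 1.16 and 1.34 CPM in +E+N and 10.97 and 15.4 CPM in -E-N (log2 fold change 3.39, SE 0.26, adjusted p = 2.14e-05). All 3 were between 0.754 and 1.40 CPM in the control libraries, and their -E libraries lay between, at 5.60 and 6.87 CPM, 3.36 and 4.38 CPM and 4.53 and 6.68 CPM. The mechanosensitive channel gene Piezo2 rose by 3.58 on the log2 scale, the leukotriene receptor gene Cysltr1 by 3.40 and the cardiac actin gene Actc1 by 3.13. Efemp1, a fibulin of the matrix, and Has2, the main hyaluronan synthase, rose by 3.28 and 3.19. Gjb2, which encodes a connexin, varied most between libraries among these, at 0.646 and 0.99 CPM in +E+N and 2.98 and 10.9 CPM in -E-N (log2 fold change 3.07, SE 0.63, adjusted p = 0.00398), and its -N libraries reached 1.32 and 2.99 CPM. Gjb2 was not called without +E+N replicate 1 (2.81), +E+N replicate 2 (3.42) or -E-N replicate 2 (1.85). Gbp2, an interferon-inducible GTPase gene, was at 3.42 and 2.66 CPM in +E+N and 22.4 and 26.05 CPM in -E-N.

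The imprinted non-coding gene H19 was higher in -N than in -E, as Krt8 was. It was at 187 and 238 CPM in +E+N and 1515 and 1947 CPM in -E-N (log2 fold change 3.03, SE 0.23, adjusted p = 1.89e-05). In -N alone it was already at 834 and 1116 CPM, a called rise (log2 fold change 2.20, SE 0.22, adjusted p = 0.0048), whereas -E stood at 246 and 363 CPM and did not pass (adjusted p = 0.118). Of 48 tested imprinted genes, 13 rose and 2 fell. Peg10, a retrotransposon-derived gene of the placenta, went from 552 and 672 CPM to 2264 and 3489.9 CPM, with -N at 1395 and 1993 CPM, a change of 1.47 that was not called. Dio3, a deiodinase gene that inactivates thyroid hormone, was at 2.37 and 1.79 CPM in +E+N and 10.01 and 14.7 CPM in -E-N. Ddc, a decarboxylase gene, and Mcts2 fell, by 1.17 and 0.78.

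Genes of the actin cytoskeleton and of the Yap co-activator, which responds to cell spreading and tension, rose in the largest share of any list. Of 39 tested members (40 listed), 32 rose, none fell (2 at an unadjusted p under 0.05, none by DESeq2) and 7 did not pass, with a median of 1.31. The summed level of the list was 5275 and 5162 TPM in +E+N, 6689.8 and 7136 TPM in -E, 6249.7 and 6249 TPM in -N and 9723 and 10034 TPM in -E-N. The -E-N libraries were the highest and the single losses lay between. Tagln, an actin-binding protein of smooth muscle, was at 50.2 and 50.5 CPM in +E+N and 371 and 395 CPM in -E-N (log2 fold change 2.93, SE 0.10, adjusted p = 4.53e-07). It rose in each single loss as well, at 141 and 178 CPM in -E and 95.4 and 92.04 CPM in -N, with log2 fold changes of 1.66 and 0.90. The muscle actin gene Acta1 rose from 3.15 and 4.52 CPM to 22.6 and 30.7 CPM. Without any one library 28 to 32 of the 39 were called.

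Genes of the extracellular matrix rose in part as well. The summed level of the matrix list without collagens was 1163 and 1244 TPM in +E+N and 1242 and 1261 TPM in -E-N. Of 49 tested matrix genes other than collagens, 27 rose and 3 fell, and without -E-N replicate 2 there were 17 rises. Thbs1, thrombospondin, a Yap and Tgf-beta responsive matrix glycoprotein, was at 15.8 and 13.95 CPM in +E+N and 107 and 106 CPM in -E-N (log2 fold change 2.85, SE 0.08, adjusted p = 1.05e-07), and was called in each single loss too. Loxl4, an enzyme that crosslinks collagen, and the laminin gene Lama4 were at 4.29 and 5.89 CPM and 4.71 and 5.64 CPM in -E-N, against 0.619 and 0.966 CPM and 1.35 and 1.41 CPM in +E+N. The falls were Spp1, osteopontin, also listed with the naive genes, Lama1 and Fn1, at -1.90, -0.98 and -0.73, and on the log2(TPM + 1) scale Fn1 was under the fold limit, at -0.57. Of 32 collagen genes 15 rose and 1 fell. Col4a1, of basement membrane collagen, was at 124 and 167 CPM in +E+N and 302 and 418 CPM in -E-N. On the log2(TPM + 1) scale 9 collagens rose. Of 21 integrin subunits 9 rose and 3 fell, with Itgb3, a receptor for vitronectin, at 9.31 and 11.5 CPM in +E+N and 33.96 and 50.2 CPM in -E-N and the lymphocyte integrin gene Itgb7 at 14.2 and 11.9 CPM in +E+N and 1.97 and 1.33 CPM in -E-N.

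Trophectoderm genes, which mark the outer lineage of the blastocyst, rose in 16 of 23 cases, and 1 fell, with a median of 1.89. Their summed level was 509 and 626 TPM in +E+N, 708 and 990.1 TPM in -E, 984 and 1416 TPM in -N and 1934 and 3144 TPM in -E-N. They were also detected in the +E+N controls, and the 2 -E-N libraries differed from each other by more than these controls did. The keratin gene Krt8 was at 179 and 206 CPM in +E+N and 744 and 1197 CPM in -E-N (log2 fold change 2.33, SE 0.25, adjusted p = 1.23e-04), with 258 and 349 CPM in -E and 366 and 522 CPM in -N. The trophoblast factor gene Gata2 was at 9.66 and 9.61 CPM in +E+N and 49.7 and 70.3 CPM in -E-N, and Gata3 at 4.36 and 3.98 CPM in +E+N and 13.8 and 17.5 CPM in -E-N. Cdx2, which specifies trophectoderm and later the posterior body, was low throughout, at 1.56 and 2.12 CPM in +E+N and 5.96 and 7.78 CPM in -E-N (log2 fold change 1.89, SE 0.25, adjusted p = 4.22e-04). Plac1, of the placenta, rose by 2.44, while the factor gene Tfap2a fell by 1.45. In -N the list's median was 1.02 with no member called (21 of 23 higher and 1 lower at an unadjusted p under 0.05), and in -E it was 0.41 with 2 higher and 2 lower. A list of 7 trophoblast markers overlaps with this one, as in Cdx2 and Gata3, and is not separate support. Of these markers 5 rose, with summed levels of 79.5 and 89.5 TPM in +E+N and 178 and 221 TPM in -E-N. A larger number of such cells and more RNA per cell cannot be told apart in bulk libraries.

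Epithelial genes rose beside them. Of 38 junction, claudin and keratin genes 20 rose and 3 fell, the desmosomal cadherin gene Dsc2 among the rises (2.43) and the gap junction gene Gjc1 among the falls (-1.28). Of 24 genes used to describe the epithelial-mesenchymal transition 11 rose and 2 fell, but the rises held genes of both ends. The claudin gene Cldn7 rose from 17.1 and 13.5 CPM to 49.3 and 50.8 CPM, and so did the mesenchymal Cdh2, N-cadherin, from 6.92 and 6.50 CPM to 15.8 and 16.4 CPM. E-cadherin, Cdh1, was slightly higher in -E-N and did not reach the fold limit (log2 fold change 0.33, SE 0.05, adjusted p = 5.29e-04), Vim did not pass (log2 fold change -0.02, SE 0.08, adjusted p = 0.858), and the repressor Zeb1 fell (-1.07). Zeb1 was not called without +E+N replicate 2, -E-N replicate 1 or -E-N replicate 2 (-0.78, -1.01 and -1.16). Without -E-N replicate 2, 7 of the 24 rose.

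**Figure D3:**
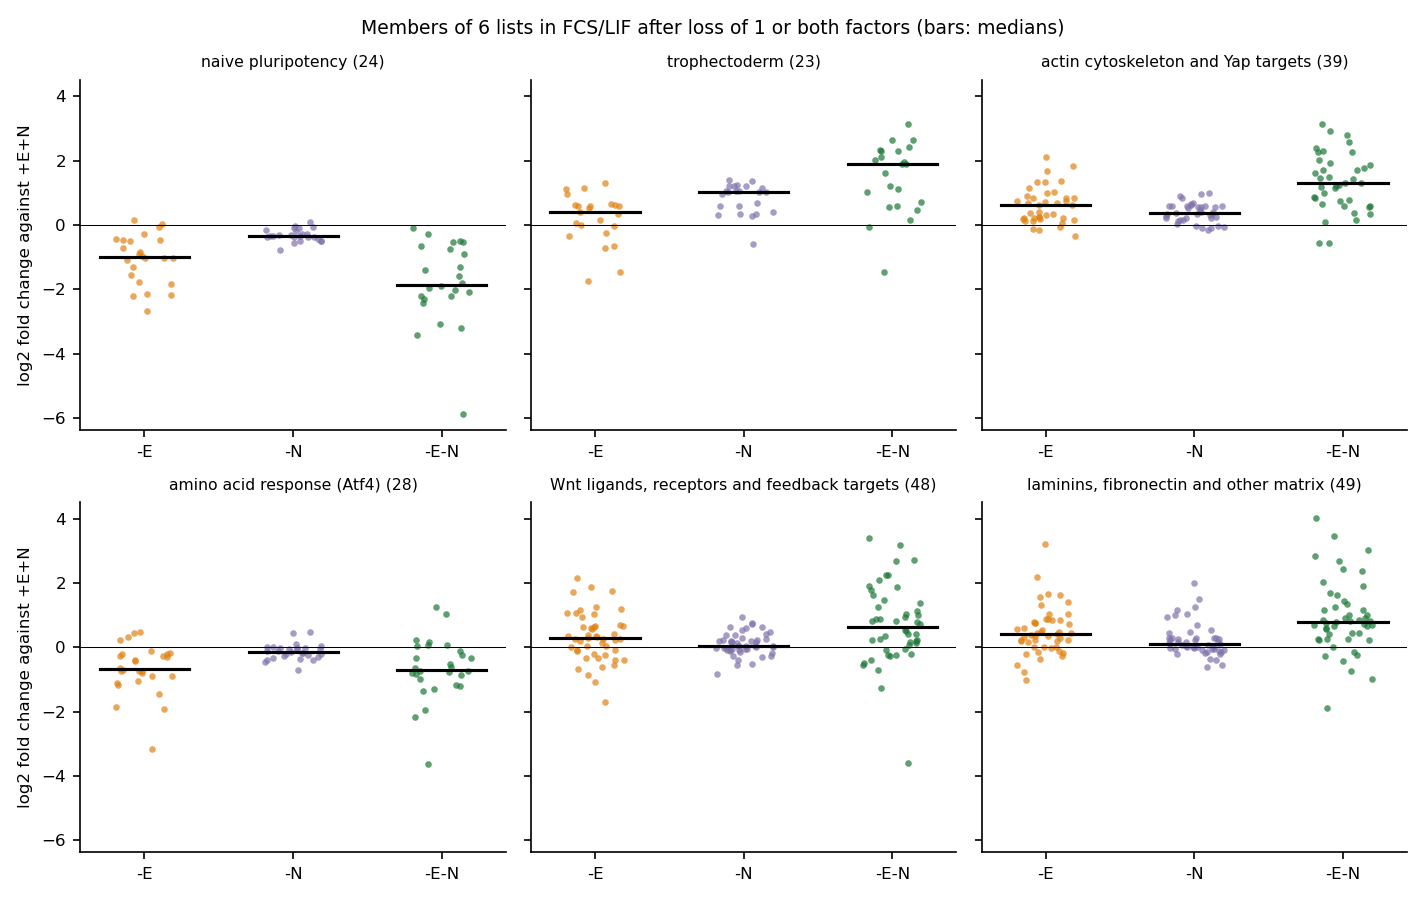
Log2 fold change against +E+N of each tested member (points) of 6 gene lists in FCS/LIF after loss of Esrrb (-E), Nr5a2 (-N) or both (-E-N), with the median as a bar and the number of members in brackets. The 3 comparisons share the +E+N libraries. Naive genes have medians of -0.99, -0.34 and -1.86, trophectoderm genes 0.41, 1.02 and 1.89.

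The Wnt, Bmp and Nodal lists each had more rises than falls. Of 48 tested Wnt genes (53 listed) 17 rose and 2 fell, and 3 of those tested had passed the count filter through -E-N alone. Among the ligands, Wnt8a was at 0.942 and 1.11 CPM in +E+N and 6.12 and 7.05 CPM in -E-N beside Wnt3. The falls were Notum and the receptor gene Fzd5 (-1.27). Of 28 genes of Bmp signalling and its Id targets 15 rose and none fell (1 at an unadjusted p under 0.05 and by DESeq2). Msx1, a homeobox gene induced by Bmp, was at 0.78 and 1.04 CPM in +E+N and 6.79 and 6.22 CPM in -E-N. Its relative Msx2 was at 2.96 and 3.06 CPM in +E+N and 11.5 and 14.8 CPM in -E-N. Without -E-N replicate 2, 8 of the 28 rose. Of 26 Nodal, activin and Tgf-beta genes 9 rose, including the activin antagonist gene Fst (1.85). The single fall was that of Inhbb, a subunit of activin B, at 12.03 and 9.24 CPM in +E+N and 0.586 and 1.11 CPM in -E-N (log2 fold change -3.64, SE 0.27, adjusted p = 1.88e-05), and Inhbb had fallen in -N (-2.29) and in -E (-2.59) alike.

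Fgf and Erk genes moved both ways, with 10 of 36 up and 5 down. Fgf4, the autocrine ligand of ESCs and a target of Oct4 and Sox2, fell from 107 and 89.4 CPM to 30.4 and 25.4 CPM. Fgf5, the marker of the formative epiblast, rose from 2.39 and 2.66 CPM to 10.01 and 10.2 CPM (log2 fold change 2.00, SE 0.14, adjusted p = 1.20e-05), against 2.09 in -E. The Erk phosphatase gene Dusp5 and the Ap-1 factor Fosl2 rose by 1.61 and 1.91, and the Ets factor gene Etv4 fell by 1.16. In the Dusp family as a whole 10 of 20 tested members rose and 1 fell. Hedgehog genes were split, 4 up (2 without +E+N replicate 1) and 3 down of 14, with the activator Gli2 at 58.3 and 60.02 CPM in +E+N and 9.48 and 11.1 CPM in -E-N and the mostly repressive Gli3 at 13.9 and 16.4 CPM in +E+N and 35.03 and 36.3 CPM in -E-N. Of 22 Notch genes 5 rose and 3 fell, with log2 fold changes of Notch3 at 1.04 and Notch4 at -2.03. Retinoid genes gave 4 rises and 3 falls of 16 (2 rises without -E-N replicate 2), with the retinol dehydrogenase gene Rdh10 up (1.08) and the receptor gene Rara down (-0.85).

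Genes of later lineages rose in part. Formative and primed epiblast genes were divided, 9 of 27 up and 8 down. Sox3, of the early ectoderm, was at 3.77 and 2.78 CPM in +E+N and 14.8 and 12.7 CPM in -E-N and Meis2 at 1.16 and 0.778 CPM in +E+N and 5.11 and 5.03 CPM in -E-N. Otx2, which drives the exit from the naive state, went the other way, at 36.7 and 42.8 CPM in +E+N and 13.5 and 10.5 CPM in -E-N (log2 fold change -1.73, SE 0.12, adjusted p = 1.54e-05), with -E at 33.8 and 31.2 CPM, and Tcf15 fell by 1.50. Of 18 tested mesoderm and streak genes (27 listed) 10 rose and 1 fell, and 2 of those tested had passed the count filter through -E-N alone. Brachyury, T, was at 0.431 and 0.495 CPM in +E+N and 2.87 and 2.44 CPM in -E-N (log2 fold change 2.51, SE 0.30, adjusted p = 2.21e-04), and Hand1, of mesoderm and trophoblast, at 17.9 and 19.09 CPM in +E+N and 45.4 and 68.7 CPM in -E-N. Of 21 neural crest and surface ectoderm genes 12 rose and 3 fell, Dlx3 reaching 16.3 and 20.96 CPM from 3.31 and 3.65 CPM. Neural genes gave 8 rises and 5 falls of 25. Sox1, of the neural plate, rose by 1.06, Irx3 by 2.30, and Pax6 fell from 9.04 and 8.91 CPM to 3.70 and 3.52 CPM.

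Of 26 tested endoderm genes, 7 rose and 1 fell, with the adaptor Dab2 at 11.97 and 14.2 CPM in +E+N and 39.3 and 38.3 CPM in -E-N and Apob rising by 1.93. Sox17 was at 1.53 and 2.03 CPM in +E+N and 1.46 and 1.56 CPM in -E-N and Gata6 at 3.61 and 6.55 CPM in +E+N and 2.18 and 2.59 CPM in -E-N, neither called (adjusted p = 0.429 and 0.0124). Gata6 passed as lower by DESeq2 (-1.10, adjusted p = 0.00159), with the replicate number as a block (-1.07, adjusted p = 0.00495) and without +E+N replicate 1 (-1.46). Of 39 listed Hox genes 5 passed the count filter, and 2 rose (1 with any 1 library left out). Markers of other cell types were at low summed levels. Those of fibroblasts were at 5.74 and 6.19 TPM in +E+N and 7.54 and 8.31 TPM in -E-N, of primitive endoderm at 10.7 and 15.2 TPM and 26.99 and 24.8 TPM, of mesoderm at 13.2 and 15.1 TPM and 39.97 and 55.6 TPM, of blood at 3.18 and 3.51 TPM and 4.53 and 5.12 TPM, and of muscle at 6.63 and 7.66 TPM and 13.2 and 13.7 TPM. Single genes carried most of the rise in the mesoderm, primitive endoderm and muscle sums. Hand1, also a trophoblast marker, was at 11.96 and 13.39 TPM in +E+N and 35.28 and 52.05 TPM in -E-N. Dab2 went from 4.33 and 5.69 TPM to 19.69 and 15.76 TPM, and Actc1 from 0.54 and 0.79 TPM to 6.27 and 6.89 TPM. Kdr, Gata6, Sox17 and Sox7 had log2 fold changes below 0 and were not called by edgeR. Neuron markers were lower in -E-N, at 132 and 158 TPM against 196 and 209 TPM in +E+N. They were lower still in -E, at 99.6 and 106.7 TPM. Stmn2 carried most of the fall in -E-N, at 116.7 and 130.2 TPM in +E+N and 68.6 and 76.7 TPM in -E-N. Tubb3, the other large member, was not called. Of the tested markers 5 of 7 of fibroblasts rose (2 to 5 with 1 library left out, fewest without -E-N replicate 2, and 1 on the log2(TPM + 1) scale), 1 of 7 of primitive endoderm, 2 of 4 of mesoderm, 1 of 3 of blood (0 with any 1 library left out) and 1 of 5 of muscle, and 3 of 6 of neurons fell (1 or 2 with 1 library left out). The part of any such cells in the results was not tested.

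Genes for cell contact and defence rose in larger numbers than they fell, as all tested genes did (12.4% higher and 6.4% lower). Of 57 ephrin, semaphorin, netrin and plexin genes 19 rose (33.3%) and 7 fell (12.3%). The ephrin genes Efnb1 and Efna5 and the semaphorin gene Sema3c rose by 2.49, 2.48 and 2.40, and the netrin gene Ntn1 and the receptor gene Epha4 fell by 2.46 and 2.09, both as far in -E alone (-2.42 and -2.11). Of 39 synaptic and channel genes 11 rose (28.2%) and 3 fell (7.69%). Syt1, a calcium sensor of secretory vesicles, rose by 2.84. Without -E-N replicate 2, fewer of these synaptic and channel genes rose. Of 32 interferon and immune genes 12 rose (37.5%) and 5 fell (15.6%), both shares above those over all tested genes. The rises included the immunoproteasome subunit gene Psmb8 at 1.37 and 0.636 CPM in +E+N and 5.30 and 4.76 CPM in -E-N and Tap2, a peptide transporter of class I antigen presentation, at 1.40 and 1.37 CPM in +E+N and 4.18 and 5.49 CPM in -E-N, whereas Oas1a, Ifitm2 and Ifitm1 fell by 1.55, 1.33 and 0.97. The summed level of the list was lower in -E-N, at 1870.5 and 1769 TPM against 2703 and 2493 TPM in +E+N.

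Among nuclear receptors, the family of the lost factors, 8 of 28 tested rose and 3 fell. Pparg, the receptor of fat and placenta, was at 2.05 and 2.33 CPM in +E+N and 6.97 and 12.5 CPM in -E-N (log2 fold change 2.15, SE 0.33, adjusted p = 8.08e-04), and the glucocorticoid receptor gene Nr3c1 rose by 1.07. There were 5 rises without -E-N replicate 1, -E-N replicate 2 or +E+N replicate 1. Lipid transport genes rose in 7 of 23 cases, led by the endothelial lipase gene Lipg (2.36), and fell in 3, and 3 rose without -E-N replicate 2. Of 26 hypoxia genes 8 rose and 5 fell, with log2 fold changes of Anxa2 at 2.08, Ndrg1 at 1.48 and the demethylase Kdm3a at -1.19.

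Cell cycle genes changed in part. Of 18 D cyclins and Cdk inhibitors 6 rose, and Ccnd1, cyclin D1, fell (-0.85). Cdkn1a, p21, was at 37.2 and 56.8 CPM in +E+N and 121 and 144 CPM in -E-N (log2 fold change 1.50, SE 0.18, adjusted p = 2.74e-04), and Gadd45b, a growth arrest gene, at 21.2 and 15.2 CPM in +E+N and 52.3 and 58.6 CPM in -E-N. With -E-N replicate 1 or -E-N replicate 2 left out, 3 of the 18 rose. Of 32 p53 targets 7 rose and 1 fell, and of 27 Bcl2 family and caspase genes 5 rose and 1 fell. Of 49 replication genes 1 rose and 3 fell. Of 43 mitosis genes 1 fell, Spc24 of the kinetochore (-0.69), which was under the fold limit without +E+N replicate 1 (-0.53). Most genes of both lists were slightly lower, with 42 of 49 and 42 of 43 below 0 and medians of -0.22 and -0.28. At an unadjusted p under 0.05, 27 replication and 34 mitosis genes were lower, and 1 and 0 higher.

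The remaining lists kept below 25% in both directions. None of 80 cytosolic ribosomal protein genes and none of 76 nuclear genes of the respiratory chain was called by edgeR or by DESeq2, although 79 and 71 of them had log2 fold changes below 0, with medians of -0.31 and -0.17. At an unadjusted p under 0.05, 71 of the ribosomal and 40 of the respiratory genes were lower, and 0 and 1 higher. Mitochondrial ribosomal proteins had 2 falls of 78, and ribosome biogenesis 2 of 38. Cholesterol synthesis had 1 rise and 2 falls of 33, fatty acid oxidation 4 and 4 of 36, and lysosome and autophagy 7 and 3 of 41. Of 30 genes of the unfolded protein response and of chaperones, 3 rose (10%, against 12.4% of all tested genes). They were the heat shock genes Hspa1a and Hspa1b and the small heat shock gene Hspb8, at log2 fold changes of 1.24, 1.14 and 1.17. Polycomb genes were divided, 7 up and 5 down of 34, with Pcgf5 of the first complex at 1.42, and Jarid2 and Mtf2 of the second at -1.14 and -0.96. Of 19 genes of the two-cell embryo none was called by edgeR or by DESeq2, with 2 higher at an unadjusted p under 0.05, although 4 rose in -E.

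Some genes were at or under 3 counts in both libraries of one state and at 20 or more in both of the other, and were picked by that rule after the counts were seen. There were 8 such genes with the low counts in +E+N and 9 with the low counts in -E-N. Decorin, Dcn, a matrix proteoglycan of fibroblasts, had 2 and 2 counts in +E+N and 21 and 24 in -E-N, at least 6.92-fold higher against a floor of 3 counts per library. Sprr2a2, a cornified envelope gene whose near copies may share reads, had 3 and 2 counts against 48 and 73. In the other direction Spic, an Ets factor gene, had 39 and 48 counts in +E+N and 0 and 3 in -E-N, at least 12.8-fold lower.

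The nearest state, -E, was compared with -E-N directly. Besides the Nr5a2 disruption, the level of Esrrb transcript differed between these states. It was at 75.4 and 66.1 CPM in -E and 31.7 and 29.4 CPM in -E-N (edgeR log2 fold change -1.21, adjusted p = 9.41e-04). Nr5a2 was itself lower in -E than in +E+N, at 19.96 and 19.5 CPM (log2 fold change -0.98). The comparison thus does not isolate the absence of Nr5a2. The fit called 790 of 15636 genes (5.05%), 550 higher (3.52%) and 240 lower (1.53%) in -E-N. This count rests on single libraries. It was 95 without -E replicate 1, 151 without -E-N replicate 2 and 308 without -E replicate 2, and with -E replicate 1 left out the split turned to 31 higher and 64 lower. Of 23 trophectoderm genes 16 were higher in -E-N than in -E, such as Krt8 (log2 fold change 1.68, SE 0.24, adjusted p = 0.00243) and Gata2 (1.68). Actin and Yap genes had 20 of 39 higher, junction, claudin and keratin genes 15 of 38, integrins 6 of 21 and imprinted genes 10 of 48, with H19 at 2.51. On the falling side, 11 of 24 naive genes were lower in -E-N than in -E. Nr0b1 was lower again (log2 fold change -3.22, SE 0.20, adjusted p = 8.57e-05), with Khdc3 at -3.05 and Zfp42 -1.67. Tfcp2l1, Ldhb and Epha4, in contrast, did not pass, with differences of -0.08, -0.12 and 0.02.

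The same loss in 2i/LIF, in which serum is replaced by inhibitors of Mek and Gsk3 and ESCs are more uniformly naive, was measured in 3 libraries of each state that are not shared with FCS/LIF. There 1300 genes rose (9.06%) and 1372 fell (9.56%) of 14355 tested, 18.6% in all. Over the 13844 genes tested in both media, 536 rose in both, which is 36.0% of the 1490 FCS/LIF rises and 43.8% of the 1225 in 2i/LIF. The falls shared 400, or 42.4% of 944 and 31.9% of 1252, and 80 FCS/LIF rises fell in 2i/LIF while 31 FCS/LIF falls rose there. The difference between the media was tested itself in a fit of all 20 libraries, and 2136 of 16147 genes (13.2%) differed in response at an adjusted p under 0.01, 1178 with the higher log2 response in FCS/LIF (7.3%) and 958 with the lower (5.93%). By limma on log2(TPM + 1), 76.6% had the higher response in FCS/LIF against 55.1% by edgeR. The labels give no batch, so medium and any difference between the sets of libraries cannot be told apart. The count was 1323, 1369, 1367 and 1223 without +E+N replicate 1, +E+N replicate 2, -E-N replicate 1 and -E-N replicate 2 of FCS/LIF.

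By function, cytoskeletal, naive and two-cell genes differed in response between the media. Of the actin and Yap list, 8 rose and 2 fell of 33 tested in 2i/LIF, with a median of -0.05, and 15 of 39 responded more positively in FCS/LIF. Naive genes fell in both, 17 (with 2 rising) of 24 in 2i/LIF with a median of -0.94, and 10 of them responded more negatively in FCS/LIF. Zfp42 was one, with 448, 496 and 495 CPM in the 2i/LIF controls and 215, 255 and 193 CPM after the loss (log2 fold change -1.12). Nr0b1 was not, its log2 fold changes being -5.88 and -6.64. Two-cell genes rose in 15 of 16 cases in 2i/LIF, with a median of 3.77 against 0.43 in FCS/LIF, and 13 of 19 differed.

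Trophectoderm genes rose in 12 of 17 cases in 2i/LIF, with 9 members responding more positively there and 3 responding more positively in FCS/LIF. The amino acid response fell in 11 of 28 cases, and 1 member differed between media. Wnt genes rose in 17 of 42 cases. Ribosomal protein genes, none of them called in either medium, differed between media in 30 of 80 cases, always lower in FCS/LIF, with medians of -0.31 and 0.04.

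**Figure D4:**
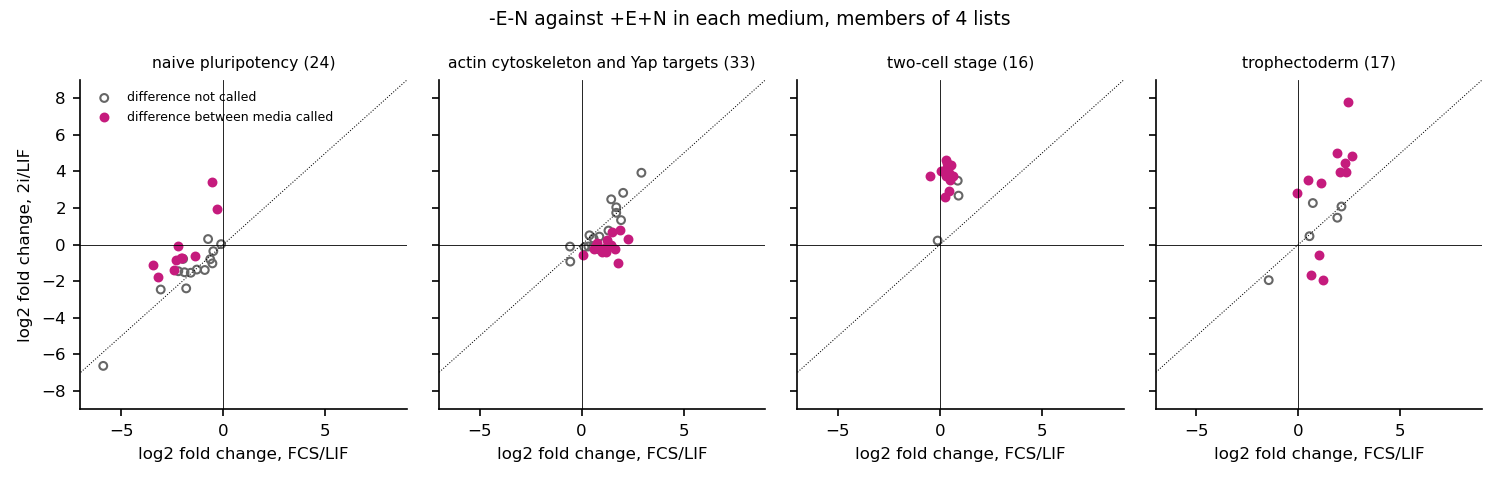
Log2 fold change of -E-N against +E+N in FCS/LIF (x) and in 2i/LIF (y) for the members of 4 lists tested in both media, filled where the difference between media was called. The points lie above the dotted line of equal response for 18 of 24 naive genes and 16 of 16 two-cell genes, which stay between -0.52 and 0.91 in FCS/LIF, and below it for 26 of 33 actin and Yap genes. Of 17 trophectoderm genes 12 are above 0 in both media.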

How the data were processed

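Poly-A selected RNA of mouse ESCs was sequenced by the study as stranded paired-end libraries. The authors aligned the reads to mm10 with STAR and deposited estimated counts and TPM values per gene from RSEM. Counts were rounded to whole numbers here, and 92 spike-in entries, at 0 in all samples, were left out. Genes with at least 20 counts in all libraries of at least 1 state were fitted with edgeR 4.0.16 (R 4.3.3), with TMM scaling and the quasi-likelihood test over the 4 states of a medium. A gene was called at a Benjamini-Hochberg adjusted p under 0.01 and a fold change over 1.5. The difference between media was fitted over all 20 RNA-seq libraries, without the fold limit. SE is the log2 fold change divided by the root of the F statistic. The study used DESeq2 with the same limits, and DESeq2 1.42.0, limma 3.58.1 on log2(TPM + 1) or log2(TPM + 0.1), other filters, a replicate term and leaving out each library were the alternatives. The fits were tested on simulated counts.

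Named genes were Esrrb, Nr5a2, the 12 largest rises and falls with a mean of at least 100 counts, up to 3 in each direction per list by the same minimum, and 18 developmental genes. A few genes that the rule takes in are not reported here. Any other gene is said to be chosen after its values were seen. The members and lists were chosen with earlier results of these data known. Gene positions are from GENCODE vM21 (GRCm38), and promoters from RefSeq (GRCm38.p6).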

Additional observations from a re-analysis of the deposited data

Results flagged for a closer look

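Of 40 genes set side by side in both media (22 of the largest changes in FCS/LIF and the 18 fixed developmental genes), 15 responded differently to loss of both factors in FCS/LIF and in 2i/LIF, by the edgeR interaction test with Benjamini-Hochberg adjustment. Values are the log2 response in FCS/LIF minus that in 2i/LIF. H19 rose in both media, far more in 2i/LIF, with a difference of -6.11, and Gbp2 (-4.27), Cdx2 (-3.10) and Krt8 (-1.59) had larger rises there too. Zfp42 (-2.28), Lrrc34 (-2.001), Klf4 (-1.41) and Jam2 (-0.89) fell further in FCS/LIF. Mymx (-4.49), Rapgef4 (-4.37) and Notumos (-4.12) fell in FCS/LIF, with log2 fold changes in 2i/LIF of 0.34, -0.61 and 0.39. Pax6 differed by -3.23, with log2 fold changes of -1.31 in FCS/LIF and 1.94 in 2i/LIF. Dnmt3b differed by -0.89. Khdc3 (3.26) and Otx2 (3.67) fell further in 2i/LIF.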

How the results depend on the processing

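The count of 2934 genes between -E-N and +E+N became 4795 with no limit on the fold change and 1819 to 2637 with one library left out, the lowest without -E-N replicate 2. The 790 genes between -E-N and -E became 1571 with a filter of at least 1 count, 1265 with the replicate block, 437 over all 20 samples, 482 and 467 by limma on log2(TPM + 1) and log2(TPM + 0.1), 1258 with no limit on the fold change, 1511 at an adjusted p under 0.05 and 95 to 619 with one library left out. The 2672 genes in 2i/LIF stayed within 1.5 times under every alternative run, with 2182 to 2497 when one library was left out. The 2136 genes that differed between media became 3703 with the replicate block, 3821 at an adjusted p under 0.05 and 1223 to 2185 with one library left out, and 76.6% of them were higher in FCS/LIF by limma on log2(TPM + 1), against 55.1% by edgeR. The labels do not say what a replicate number shares. Deviations of same-numbered +E+N and -E-N libraries correlated at 0.134 in FCS/LIF and at 0.421, 0.00792 and 0.399 in 2i/LIF, and the replicate block called 3320 genes for the FCS/LIF loss and 3286 for 2i/LIF. Without -E-N replicate 2, 12 of 43 list counts were over 1.5 times lower. No named gene reversed its direction in any alternative run. With 2 libraries in each FCS/LIF state, a fit that leaves one out assumes that the lone library varies like the others.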
